A study of Mus musculus with 6 samples.

Results

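The genes described here build the basement membrane, leaving the laminins aside: the collagen IV chains Col4a1, Col4a2, Col4a5 and Col4a6, the multiplexin collagens Col15a1 and Col18a1, the nidogens Nid1 and Nid2, and the heparan sulfate proteoglycans Hspg2 (perlecan) and Agrn (agrin). They were chosen by gene symbol, and all 10 were found among the 35727 Ensembl genes of the deposited table. Of these 10, 9 had enough counts to be tested, and Col4a6 did not. RNA sequencing was done on 6 libraries of mouse undifferentiated pleomorphic sarcoma cells, all from 1 tumour cell line.

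The line began as mesenchymal stem cells of p53-knockout female C57/Bl6 mice, in which a retroviral vector drove Ccne1 (cyclin E1) and a red fluorescent protein (RFP), and it had been passaged through wild-type female C57/Bl6 mice before use. All groups therefore share the p53 deletion, the Ccne1 transgene and RFP. A further viral vector then brought in a scrambled hairpin RNA (shSCR, 3 libraries) or a hairpin against Postn, the gene of the matricellular protein periostin (shPostn, 3 libraries). The cells grew as tumours in mice and were sorted by RFP before RNA extraction. The second group is titled a knockout although its protocol gives a hairpin, and the labels name 1 hairpin and no further line for it. Whether the 3 libraries of each group stem from separate tumours or animals is not stated, so each p-value measures the spread between these samples only, which may be technical.

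A basement membrane is a thin sheet of matrix that lies under epithelia and endothelia and wraps muscle, fat, nerve sheath and vessel wall cells. Laminin and collagen IV each form a network in it. Nidogens link the laminin network to collagen IV and to perlecan, and perlecan and agrin carry heparan sulfate chains that bind growth factors and water. Collagens XV and XVIII sit at the border between the sheet and the fibrous matrix, and both release antiangiogenic fragments, of which endostatin from Col18a1 is the best known. Mesenchymal tumour cells can make many of these components without forming a continuous sheet.

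The libraries held between 19603269 and 20376554 counts each. Postn, the silenced gene, measured 4097, 3602 and 3225 CPM (counts divided by the TMM-scaled library total) in shSCR and 217, 471 and 639 CPM in shPostn, 12.1% of the control mean. Its log2 fold change was −3.04 with a standard error (SE) of 0.41 (edgeR adjusted p = 0.0125; exact 2-sided permutation p = 0.1, the smallest that 3 against 3 libraries allow). Leaving out shSCR replicate 1 gave an adjusted p of 0.0532, and leaving out replicate 2 gave 0.0542. All 11 mesenchymal markers were tested, and 1 passed the test, higher in shPostn. Their CPM summed to between 37137 and 56532 in each library, mostly from Col1a1, Col1a2, Col3a1, Fn1 and Vim, while Thy1 reached at most 3.89. The sum was at most 2.60 for 7 epithelial markers, of which Krt18 and Krt5 were at 0. The library shPostn replicate 3 stood apart: it was separated from the other 5 by the second principal component (33.4% of the variance), and all 13 leukocyte and macrophage markers were highest in it. These markers summed to 228, 162 and 74.6 CPM in shSCR and to 126, 54.6 and 1094 CPM in shPostn, led by the macrophage lysozyme gene Lyz2, and none of the 13 passed the test. Where this library decides a value below, the value without it is given too.

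The most abundant of the 10 genes per length of transcript were Col18a1, Hspg2, Agrn and Nid1, and the collagen IV chains came well below them. Levels between genes are compared as CPM per kilobase of the principal transcript. In shSCR, Col18a1 had a mean of 332 CPM per kb, Hspg2 202, Agrn 63.7, Nid1 52.2, Col4a1 19.1, Col4a2 10.8, Col4a5 8.43, Nid2 2.87, Col15a1 0.439 and Col4a6 0.00245. The shSCR libraries of neighbouring genes in this order overlapped only between Col4a1 and Col4a2 and between Col4a2 and Col4a5. In shPostn the order of the means was nearly the same, with 366 for Col18a1, 147 for Hspg2, 40.0 for Nid1, 39.7 for Agrn, 27.8 for Col4a1, 16.9 for Col4a2, 7.28 for Col4a5, 0.754 for Nid2, 0.1002 for Col4a6 and 0.0616 for Col15a1. There Nid1, Agrn and Col4a1 overlapped, as did the collagen IV chains among themselves, and Nid2, Col4a6 and Col15a1. Hspg2 and Col18a1 together gave 81.3% of the summed CPM of the 10 genes in shSCR and 81.6% in shPostn.

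**Figure D1:**
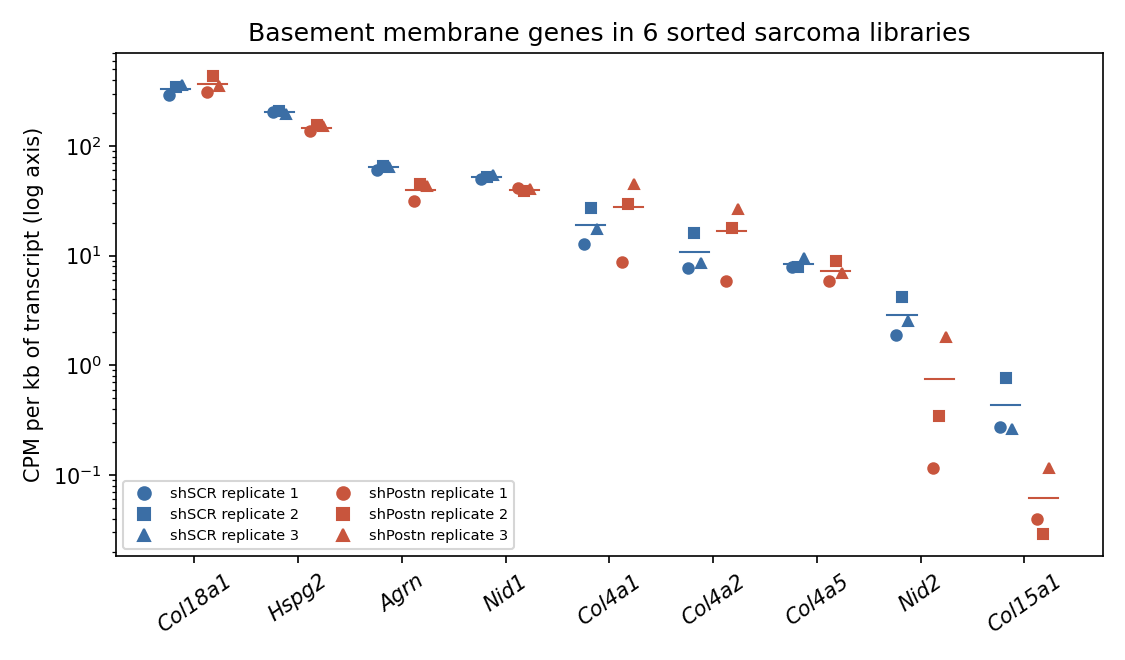
Level of 9 basement membrane genes in each library, as CPM per kilobase of transcript on a log axis, with genes in the order of their shSCR mean; symbols are the replicates, blue for shSCR and red for shPostn, and lines are group means (n = 3 each). Col4a6 is left out because 4 of its 6 libraries are at 0. Nid1, Hspg2, Agrn, Nid2 and Col15a1 have every shPostn library below every shSCR library, while the collagen IV chains and Col18a1 overlap.

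Reduced Postn went with lower levels of the genes of nidogen 1, perlecan and agrin, and with no detected change of collagen IV or Col18a1. Nid1, Hspg2 and Agrn fell to between 62.3% and 76.6% of their control means. Col15a1 fell to 14.1%, but this rare transcript would not have passed the filter on low counts without its shSCR libraries. Its being tested thus favoured a fall, and the direction of its change carries no weight of its own. Of the 9 genes tested 4 were lower, Col15a1 among them, 0 were higher and 5 did not pass at an adjusted p of 0.05. Among all 12819 genes tested 5.53% were lower and 4.61% higher by the same rule. Every shPostn library lay below every shSCR library for 5 of the 9 genes, again with Col15a1 among them, against 17.0% of all genes tested, and the other 4 overlapped. The median log2 fold change was −0.38 over the 9 genes, Col15a1 again included, and 0.01 over all genes tested. With each chromosome's median taken out 1 of the 9 passed, and without single libraries 5 (shPostn replicate 3), 3 (shPostn replicate 1), 2 (shPostn replicate 2), 1 (shSCR replicate 1) and 0 (shSCR replicate 2 or 3) did, while the genes called over the whole table ranged from 307 to 2220. These are bulk libraries, in which fewer cells of a type and less RNA per cell cannot be told apart.

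Nid1 encodes nidogen 1 (entactin), the link between laminin and collagen IV (ENSMUSG00000005397; GRCm38 chromosome 13, 13437551 to 13512269, plus strand). It measured 305, 316 and 334 CPM in shSCR and 251, 236 and 244 CPM in shPostn. All 3 shPostn libraries were low and close together, and the groups did not overlap. Group means of 318 ± 14.8 and 244 ± 7.52 CPM (SD, n = 3 each) gave a log2 fold change of −0.38 (SE 0.06, edgeR adjusted p = 0.0138). This was the smallest of the 4 falls and the most even: the SD of log2 CPM within groups was 0.06 for Nid1 against a median of 0.13 over all genes tested, and 9.10% of these had a smaller one. The adjusted p was 0.0693 without shSCR replicate 2, 0.0697 without shSCR replicate 3 and 0.0527 without shPostn replicate 2, with log2 fold changes between −0.41 and −0.35 over the 6 fits that each leave out 1 library.

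Its paralogue Nid2 encodes nidogen 2, which binds the same partners and is abundant around vessels (ENSMUSG00000021806; chromosome 14, 19751265 to 19811787, plus strand). Nid2 measured 9.15, 20.6 and 12.3 CPM in shSCR and 0.564, 1.67 and 8.79 CPM in shPostn. The groups did not overlap, but shPostn replicate 3 lay just under the lowest control while the other 2 shPostn libraries were far below it. The means were 14.0 ± 5.90 and 3.67 ± 4.47 CPM (SD, n = 3 each), and the log2 fold change of −1.93 (SE 0.96) did not pass (edgeR adjusted p = 0.275). Without shPostn replicate 3 it was −3.64 with an adjusted p of 0.0218. The highest shPostn library had 15.6 times the level of the lowest, and 98.5% of all genes tested had a smaller spread within groups. Nid2 overlaps Rtraf on the opposite strand, which had between 1478 and 1695 counts in the 6 libraries, and whether the counting used strand is not given in the sources used here.

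Markers of endothelial cells summed to their lowest levels in the same 2 shPostn libraries in which Nid2 was lowest. The 12 endothelial markers summed to 6.15, 7.82 and 8.12 CPM in shSCR and to 3.75, 4.14 and 9.74 CPM in shPostn. None of the 12 was at 0 in all libraries and 7 were highest in shPostn replicate 3, yet only 4 had enough counts to be tested and 0 of these passed. Cdh5, the endothelial cadherin gene with the highest mean in the list, measured 1.23, 2.44 and 3.30 CPM in shSCR and 0.359, 0.607 and 2.10 CPM in shPostn. Single markers differed: Plvap, of fenestrated endothelium, measured 2.07, 1.76 and 2.08 CPM against 1.18, 1.42 and 0.799 CPM, lowest where Nid2 was highest in shPostn. The 9 pericyte markers summed to between 944 and 1213 CPM in shSCR and between 752 and 1002 CPM in shPostn, mostly from Pdgfrb, which mesenchymal cells express too, and 0 of the 6 tested passed. Within that list Notch3, a receptor of mural cells, measured 14.5, 34.9 and 21.4 CPM in shSCR and 1.23, 2.68 and 6.04 CPM in shPostn, the same order over the 6 libraries as Nid2. Mcam measured 18.4, 16.9 and 16.5 CPM in shSCR and 44.1, 22.7 and 63.7 CPM in shPostn, the opposite direction. The part of vessel cells and of leukocytes in the levels of Nid2 was not tested.

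Hspg2 encodes perlecan, the large heparan sulfate proteoglycan that binds nidogens, laminin and growth factors (ENSMUSG00000028763; chromosome 4, 137468769 to 137570630, plus strand). It measured 2889, 2960 and 2741 CPM in shSCR and 1929, 2186 and 2136 CPM in shPostn. The highest shPostn library lay well below the lowest control. The means were 2863 ± 112 and 2084 ± 136 CPM (SD, n = 3 each), with a log2 fold change of −0.46 (SE 0.08, edgeR adjusted p = 0.0190). With the loss of 1 control library the adjusted p was 0.0820 without shSCR replicate 1, 0.103 without shSCR replicate 2 and 0.0686 without shSCR replicate 3. The log2 fold change itself stayed between −0.49 and −0.41 over the 6 fits.

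Agrn encodes agrin, which binds laminin and dystroglycan and clusters acetylcholine receptors at the neuromuscular junction (ENSMUSG00000041936; chromosome 4, 156165290 to 156197488, minus strand). It measured 419, 455 and 444 CPM in shSCR and 218, 307 and 295 CPM in shPostn. Replicate 1 was the lowest of the shPostn libraries, and the groups did not overlap. The means were 439 ± 18.6 and 274 ± 48.5 CPM (SD, n = 3 each), with a log2 fold change of −0.68 (SE 0.13, edgeR adjusted p = 0.0215). Agrn did not pass without shSCR replicate 1 (adjusted p = 0.0648), replicate 2 (0.101) or replicate 3 (0.0826). Its log2 fold change over the 6 fits lay between −0.77 and −0.54.

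Col15a1 encodes collagen XV, a chondroitin sulfate-bearing collagen of the outer face of basement membranes in muscle, vessel wall and connective tissue (ENSMUSG00000028339; chromosome 4, 47208161 to 47313167, plus strand). Its counts were 29, 82 and 27 in shSCR and 4, 3 and 12 in shPostn. In CPM this was 1.43, 4.01 and 1.37 against 0.205, 0.152 and 0.599. The log2 fold change was −2.80 (SE 0.67, edgeR adjusted p = 0.0430) between means of 2.27 ± 1.51 and 0.319 ± 0.245 CPM (SD, n = 3 each). It passed in 1 of the 6 fits that leave out a library, the one without shPostn replicate 3 (−3.62, adjusted p = 0.0152). Without shSCR replicate 2, its highest library, the log2 fold change was −2.11 (adjusted p = 0.151), and without the other 4 libraries in turn the adjusted p lay between 0.0791 (shSCR replicate 1) and 0.120 (shPostn replicate 2), with 0.0826 for shSCR replicate 3 and 0.114 for shPostn replicate 1.

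Hspg2, Agrn and Col15a1 all lie on chromosome 4, many megabases apart, and the genes of that chromosome as a group lay below 0. The median log2 fold change was −0.14 over the 665 genes there with a mean above 4 CPM. Of all 780 tested there, these 3 members among them, 114 were lower (14.6%). Within 3 Mb of Agrn 48 other genes were tested, with a median of −0.14, and 9 were lower and 1 higher. The 65 such neighbours of Hspg2 had a median of −0.11, with 5 lower and 1 higher, and the 42 of Col15a1 a median of −0.11, with 1 lower and 0 higher. A more negative log2 fold change was found in 2 neighbours of Agrn, 4 of Hspg2 and 0 of Col15a1, an order that the choice of genes already called lower partly fixes. With each chromosome's median taken out, the log2 fold changes were −0.54 for Agrn (adjusted p = 0.0606), −0.32 for Hspg2 (0.0788) and −2.66 for Col15a1 (0.0689), and none of the 3 passed. Nid1, on chromosome 13, where the median was near 0, kept −0.38 (adjusted p = 0.0221).

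**Figure D2:**
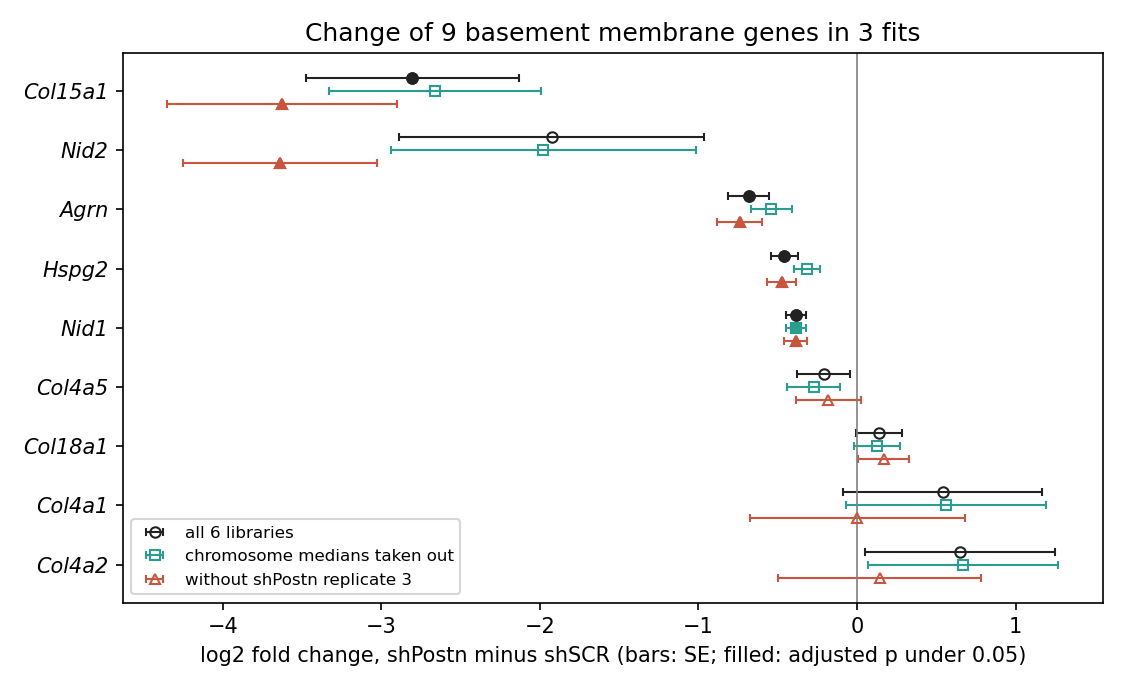
Log2 fold change of the 9 tested genes (shPostn minus shSCR; bars are 1 SE) with all 6 libraries, with chromosome medians taken out, and without shPostn replicate 3; filled symbols have an adjusted p under 0.05. Nid1 is filled in all 3 fits, while Agrn, Hspg2 and Col15a1 are open with chromosome medians taken out and Nid2 is filled only without shPostn replicate 3.

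The stretches upstream of the 4 genes called lower are shown, a choice that fixes the direction the genes share. For Col15a1 that direction carries no weight of its own. The profiles of the 4 genes over the libraries were not closely alike, and the stretches differ in base composition. Each is the 199 bases from 250 to 52 bases before the gene's start in RefSeq (GRCm38.p6), written 5′ to 3′ on the gene's own strand. The promoter table used here, taken from RefSeq, matched 9 of the 10 genes. Capitals mark GC boxes, the letters GGGCGG or their reverse complement CCGCCC, the core of the sites that Sp1-type factors bind. The coordinates are chr4:137468553-137468751 on the plus strand for Hspg2, chr4:156197540-156197738 on the minus strand for Agrn, chr13:13437352-13437550 on the plus strand for Nid1 and chr4:47207762-47207960 on the plus strand for Col15a1.
Hspg2: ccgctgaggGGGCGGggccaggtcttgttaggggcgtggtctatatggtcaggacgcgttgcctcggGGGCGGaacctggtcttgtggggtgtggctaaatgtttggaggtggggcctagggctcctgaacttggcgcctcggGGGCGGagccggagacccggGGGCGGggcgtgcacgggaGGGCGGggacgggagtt
Agrn: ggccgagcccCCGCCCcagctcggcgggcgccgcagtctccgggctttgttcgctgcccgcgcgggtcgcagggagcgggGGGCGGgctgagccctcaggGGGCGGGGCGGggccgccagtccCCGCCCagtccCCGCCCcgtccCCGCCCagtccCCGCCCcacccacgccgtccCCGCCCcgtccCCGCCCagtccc
Nid1: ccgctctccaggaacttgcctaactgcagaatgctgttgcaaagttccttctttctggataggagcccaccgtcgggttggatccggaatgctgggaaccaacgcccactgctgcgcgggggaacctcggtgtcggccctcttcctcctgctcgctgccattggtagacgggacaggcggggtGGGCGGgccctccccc
Col15a1: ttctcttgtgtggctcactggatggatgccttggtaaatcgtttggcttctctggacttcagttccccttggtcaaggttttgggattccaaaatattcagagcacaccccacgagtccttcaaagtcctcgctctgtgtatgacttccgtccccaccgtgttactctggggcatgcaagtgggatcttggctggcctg
The Agrn stretch held 10 GC boxes, 1 pair of them sharing bases, at a GC content of 83.9%. Hspg2 held 5 at 69.8% GC, Nid1 1 at 63.8% and Col15a1 0 at 51.8%, which is also the median over the 32851 windows of this length. A GC box was present in 24.44% of these windows. CCAAT or its reverse complement ATTGG was found in 28.24% of windows and, among the 4, in Nid1 alone. TGACTCA, the AP-1 site, or TGAGTCA was in 3.59% of windows, CACGTG, the E-box, in 4.30%, and the 4 genes held neither. No match of one motif overlapped a match of another. The RefSeq start lies at the start of the principal transcript for Hspg2 and Agrn, and 51 bases from it for Nid1 and 149 for Col15a1.

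Col18a1, the collagen that yields endostatin, was the most abundant of the 10 genes per length and did not change detectably (ENSMUSG00000001435; chromosome 10, 77052178 to 77166548, minus strand). It measured 1385, 1657 and 1735 CPM in shSCR and 1497, 2083 and 1674 CPM in shPostn. The groups overlapped, with the lowest value in shSCR and the highest in shPostn. The means were 1592 ± 184 and 1751 ± 300.2 CPM (SD, n = 3 each; log2 fold change 0.14, SE 0.14, edgeR adjusted p = 0.589). It overlaps Slc19a1, which lies on the opposite strand and had 577 to 793 counts against at least 28154 for Col18a1.

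Col4a1 and Col4a2 encode the chains of the most widespread collagen IV, whose trimer holds more Col4a1 chains than Col4a2 chains. Both varied more within a group than between groups. Col4a1 (ENSMUSG00000031502; chromosome 8, 11198423 to 11312826, minus strand) measured 84.1, 181 and 115 CPM in shSCR and 57.4, 196 and 298 CPM in shPostn. Col4a2 (ENSMUSG00000031503; chromosome 8, 11312805 to 11449287, plus strand) measured 49.7, 103 and 55.6 CPM in shSCR and 38.3, 115 and 173 CPM in shPostn. For both, shPostn held the lowest library, replicate 1, and the highest, replicate 3. The log2 fold changes were 0.54 (SE 0.63, edgeR adjusted p = 0.637) for Col4a1 and 0.65 (SE 0.60, 0.548) for Col4a2. Without shPostn replicate 3 they were 0.0016 (adjusted p = 0.999) and 0.14 (0.908). The spread of Col4a1 within groups was larger than that of 95.9% of genes tested, and for Col4a2 the share was 95.3%.

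The pair moved in step from library to library. The genes lie head to head, and their annotated first exons overlap by 22 bases. Out of 12053 genes with a mean of at least 1 CPM, each was the other's nearest match in profile over the 6 libraries, with a root mean square difference of 0.13 on the centred log2 scale, against a spread of their own of 0.80 for Col4a1 and 0.77 for Col4a2. The ratio of Col4a1 to Col4a2 counts, with 0.5 added to each as in all ratios here, was 1.69, 1.75 and 2.06 in shSCR and 1.498, 1.70 and 1.72 in shPostn. Per length of transcript it was 1.65, 1.71 and 2.01 against 1.46, 1.66 and 1.68. The mean log2 ratio differed by −0.16 between the groups, which overlapped (exact 2-sided permutation p = 0.3, adjusted p = 0.375 over the 5 ratios tested).

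Col4a5 and Col4a6 encode chains of the rarer collagen IV trimers and also lie head to head, on the X chromosome with 1308 bases between their starts. They were not expressed alike. Col4a5 (ENSMUSG00000031274; 141475385 to 141689234, plus strand) measured 51.6, 51.4 and 62.4 CPM in shSCR and 38.3, 58.8 and 45.7 CPM in shPostn. The groups overlapped, and the log2 fold change of −0.21 (SE 0.17) did not pass (edgeR adjusted p = 0.469). Col4a6 (ENSMUSG00000031273; 141165403 to 141474076, minus strand) had 0, 1 and 0 counts in shSCR and 0, 0 and 40 in shPostn. All but 1 of its counts thus came from shPostn replicate 3, where they made 2.00 CPM, and no fold change is given. Of the other rare chains, Col4a3 had between 0 and 12 counts and Col4a4 between 0 and 28, also highest in that library. The ratio of Col4a1 to Col4a5 counts was 1.63, 3.51 and 1.84 in shSCR and 1.496, 3.32 and 6.53 in shPostn, which overlapped (difference of log2 means 0.54, exact permutation p = 0.7, adjusted p = 0.7). Without shPostn replicate 3 that difference was 0.025, and without shPostn replicate 1 it was 1.09.

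**Figure D3:**
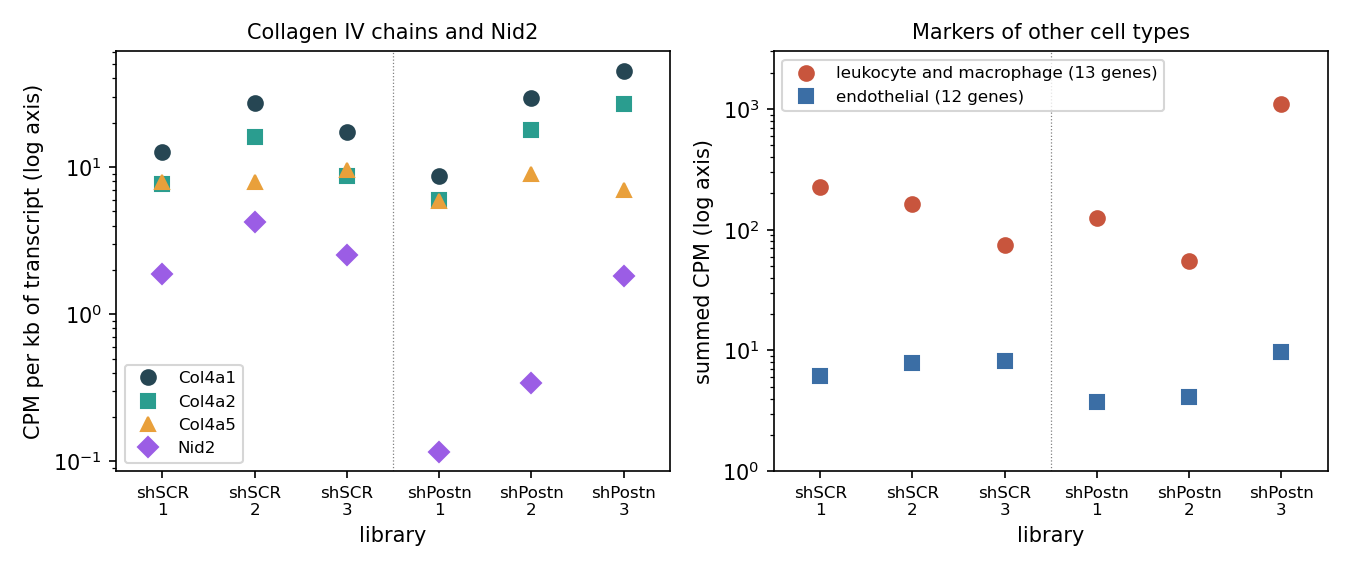
Left, Col4a1, Col4a2, Col4a5 and Nid2 in each library as CPM per kilobase on a log axis; right, summed CPM of 13 leukocyte and macrophage markers and 12 endothelial markers in the same libraries, also on a log axis. Col4a1 and Col4a2 run in parallel at each library and Col4a5 stays level, while in shPostn Nid2 and both marker sums are highest in replicate 3.

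Ratios within the other families, also with 0.5 added to each count, free the comparison from library scaling. The ratio of Nid1 to Nid2 counts was 33.2, 15.3 and 27.1 in shSCR and 425, 139 and 27.7 in shPostn. The third shPostn library thus lay within the control range, and the difference of log2 means was 2.30 (exact 2-sided permutation p = 0.2, adjusted p = 0.333). It was 3.34 without shPostn replicate 3 and 1.37 without shPostn replicate 1. The ratio of Hspg2 to Agrn counts was 6.90, 6.50 and 6.18 in shSCR and 8.84, 7.11 and 7.23 in shPostn. Every shPostn library was higher, with a difference of log2 means of 0.24, and the exact permutation p of 0.1 (adjusted p = 0.25) is the smallest the design allows. That difference was 0.14 without shPostn replicate 1 and 0.29 without shPostn replicate 2. The ratio of Col18a1 to Col15a1 counts was 954, 411 and 1243 in shSCR and 6485, 11772 and 2681 in shPostn. The groups did not overlap (difference of log2 means 2.90, exact permutation p = 0.1, adjusted p = 0.25). But Col15a1, with 3 to 12 counts in shPostn, would not have been tested without its shSCR level, so the direction of this ratio carries no weight of its own.

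Few of the genes had another of the set as a close match in profile. For Hspg2 the nearest of the 8 others compared was Nid1, with a root mean square difference of 0.11, and it stood at rank 277 among all genes compared. For Agrn the nearest was Hspg2 (0.16), at rank 95. Nid2 and Col15a1 were nearest to each other within the set, at a larger difference of 0.78. Col15a1 stood at rank 74 for Nid2, and Nid2 at rank 149 for Col15a1. The closest match in the whole table was Fbxl6 for Hspg2 (0.03), Rabl2 for Agrn (0.05), Epc1 for Nid1 (0.02), Tmem8b for Col4a5 (0.03) and Gm48786 for Col18a1 (0.04). Col4a6 was too rare to be compared. For the 2 rarest of the others the nearest was Pcdh9 for Nid2 (0.32) and Sh3tc2 for Col15a1 (0.24). Nid2 and Col15a1 had spreads of their own of 1.73 and 1.40, against 0.18 for Col18a1 and 0.38 for Agrn. The size of the difference depends on that spread, so the closeness of these matches cannot be compared directly. These likenesses describe 6 libraries that share the same cell line.

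Of 11 laminin chain genes, which form the other network of the sheet, 9 were tested, 2 fell and 1 rose, and the median log2 fold change was −0.41. Here and for the lists that follow, the shares over all genes tested are the 5.53% lower and 4.61% higher given above. Lama2, the alpha chain of muscle and mesenchymal basement membranes, measured 29.2, 33.6 and 30.0 CPM in shSCR and 0.923, 2.02 and 1.10 CPM in shPostn. The log2 fold change was −4.51 (SE 0.26, edgeR adjusted p = 0.00121), more negative than that of each of the 9 tested genes above, and Lama2 passed without any 1 library. The 6 skeletal muscle markers summed to 12.1, 12.3 and 6.60 CPM in shSCR and 1.13, 2.02 and 2.90 CPM in shPostn. None was at 0 in all libraries, and of 3 tested 1 passed, Des, with 10.97, 10.8 and 5.48 CPM against 0.205, 1.01 and 1.20 CPM. Like Col15a1, Des would not have passed the filter on low counts without its shSCR libraries. The direction of its change thus carries no weight of its own. Des made most of the sum in shSCR, and the list did not fall as a whole. Mylpf measured 0.394, 0.293 and 0.152 CPM against 0.564, 0.556 and 0.749 CPM, the opposite direction. Tnnt3 overlapped between the groups, and Ckm, Acta1 and Myh4 reached at most 0.257 CPM. The part of muscle cells in the level of Lama2 was not tested. Lamc1, the gamma chain of most laminins and the nidogen-binding one, measured 488, 553 and 484 CPM in shSCR and 298, 355 and 392 CPM in shPostn (log2 fold change −0.54, adjusted p = 0.0280). Lamc1 lost its call without any 1 of the shSCR libraries (adjusted p = 0.0768, 0.120 and 0.0824 for replicates 1, 2 and 3) or without shPostn replicate 2 (0.0774). Lamb1, the common beta chain, measured 817, 855 and 831 CPM in shSCR and 1234, 1274 and 1363 CPM in shPostn (0.63, adjusted p = 0.00530). Lamb1 lies on chromosome 12, which had a median of 0.39, and it stood at 0.24 with chromosome medians taken out (adjusted p = 0.102).

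Of 23 further components of the sheet 14 were tested, 2 rose and 1 fell, with a median of −0.12. Without shPostn replicate 3, 1 rose and 3 fell. Tinagl1, a matricellular protein that binds laminin, fell from 47.5, 44.8 and 25.2 CPM in shSCR to 6.52, 6.67 and 4.25 CPM in shPostn (log2 fold change −2.75, adjusted p = 0.00668), and it passed without any 1 library. Vwa1, a perlecan-binding protein, rose from 10.6, 5.37 and 7.31 CPM to 33.0, 21.4 and 23.0 CPM (1.73, adjusted p = 0.0186). Col7a1, the anchoring fibril collagen of skin, rose from 328, 277 and 308 CPM to 405, 655 and 650.5 CPM (0.91, adjusted p = 0.0360). Vwa1 lost its call without shSCR replicate 2 (adjusted p = 0.0601) or 3 (0.0867), and Col7a1 passed in 1 of the 6 fits, the one without shPostn replicate 1, with adjusted p of 0.0951, 0.145 and 0.118 without shSCR replicates 1, 2 and 3, and 0.0952 and 0.0696 without shPostn replicates 2 and 3.

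Of 21 tested genes that fold, secrete and crosslink collagen IV, 1 rose, 0 fell and 20 did not pass, and the median log2 fold change was 0.01. These counts depended on the fit: without shPostn replicate 3, where 2220 genes were called over the whole table, 1 rose and 5 fell, and under DESeq2 4 rose and 1 fell. Pxdn, the peroxidase that forms the sulfilimine crosslinks of collagen IV, measured 389, 427 and 414 CPM in shSCR and 580.3, 606 and 778 CPM in shPostn (log2 fold change 0.67, adjusted p = 0.0170). It too lies on chromosome 12, and with chromosome medians taken out its log2 fold change was 0.29 (adjusted p = 0.210). Pxdn missed the threshold without any 1 of the shSCR libraries (adjusted p = 0.0711, 0.0787 and 0.0724 for replicates 1, 2 and 3).

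Among cell surface receptors for these proteins, 16 were tested, 1 rose and 0 fell, with a median of 0.14. Under DESeq2 3 rose and 1 fell, and without shPostn replicate 3 1 rose and 1 fell. The gene that rose was Itga3, an integrin alpha chain for laminins, which measured 15.7, 8.94 and 10.1 CPM in shSCR and 54.7, 35.9 and 37.8 CPM in shPostn (log2 fold change 1.88, adjusted p = 0.0122). It did not pass without shSCR replicate 2 (adjusted p = 0.0568) or 3 (0.0635). Dag1, the dystroglycan gene whose product binds agrin and perlecan, had −0.09 (adjusted p = 0.424) and Lrp4, the agrin receptor gene, −0.22 (0.0569) on the log2 scale. Itgb1, the beta chain shared by the collagen IV and laminin integrins, had a log2 fold change of 0.16 (adjusted p = 0.467).

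Of 20 tested enzymes that cut basement membrane proteins or heparan sulfate, 2 rose and 2 fell, and the median was 0.09. Without shPostn replicate 3, 1 rose and 5 fell, under DESeq2 2 rose and 4 fell, and with no count filter 0 rose and 2 fell. Mmp9, a gelatinase that degrades collagen IV, rose from 19.2, 24.7 and 28.6 CPM in shSCR to 37.5, 62.1 and 59.4 CPM in shPostn (log2 fold change 1.13, adjusted p = 0.0359). Tll1, a tolloid protease, rose from 2.90, 4.94 and 3.20 CPM to 11.4, 11.8 and 31.6 CPM (2.31, adjusted p = 0.0418). Its log2 fold change was 1.66 without shPostn replicate 3 (adjusted p = 0.00312), and it did not pass with no count filter (0.0967), under limma-voom (0.0624) or with chromosome medians taken out (0.0589). The membrane-type metalloproteinases Mmp15 (−2.77, adjusted p = 0.00361) and Mmp16 (−0.42, adjusted p = 0.0333) fell. Mmp2, the other collagen IV gelatinase, had −0.29 (adjusted p = 0.197), and the heparanase gene Hpse −2.26 (0.183). Mmp15 passed without any 1 library. Mmp9 passed in 1 of the 6 fits, the one without shPostn replicate 1, Tll1 only without shPostn replicate 1 or 3 and Mmp16 only without shPostn replicate 2 or 3, with adjusted p in the other fits between 0.0566 and 0.151.

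**Figure D4:**
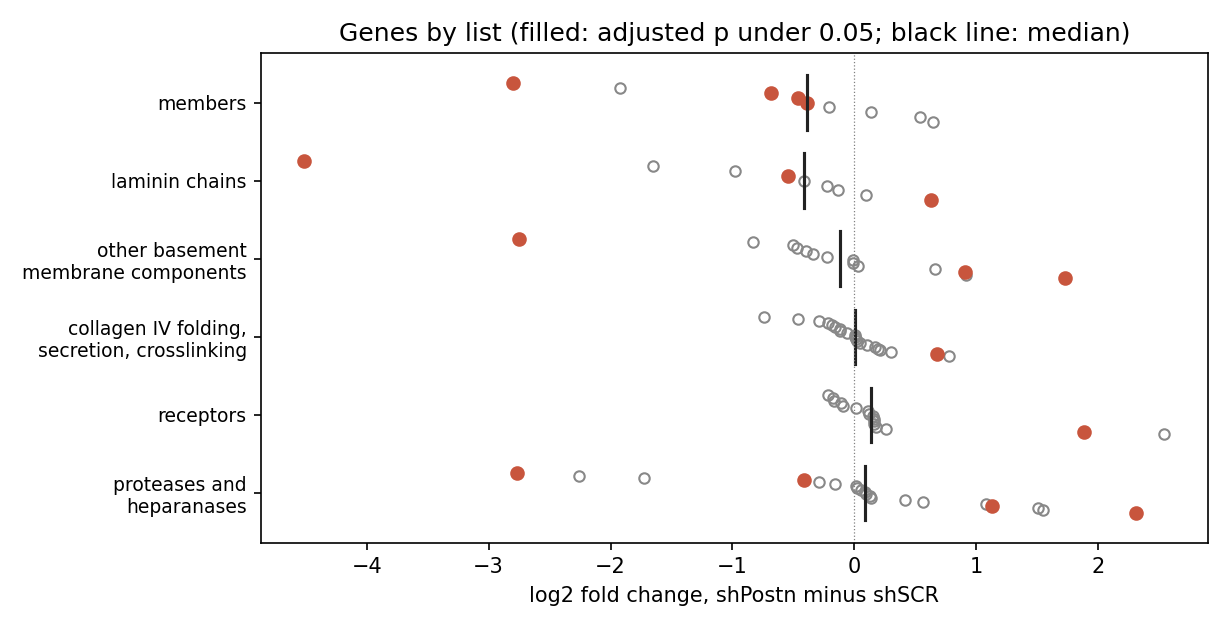
Log2 fold change (shPostn minus shSCR) of every tested gene in the basement membrane set and in 5 related lists; each point is a gene, filled points have an adjusted p under 0.05 and black lines are list medians. Collagen IV folding genes cluster near 0 with 1 filled point. Receptor genes do so too, apart from their 1 filled point, Itga3 at 1.88, and an open point at 2.54. Laminins, other components and proteases spread to both sides.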

How the data were processed

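RNA was extracted with TRIzol and made into strand-specific mRNA libraries, per the labels' protocols. Per the submitters' processing notes, the authors used Salmon and mm10, and the table they deposited gives 1 estimated count for each Ensembl gene and library. Salmon's version, its annotation and any use of strand were not given in the sources used here. Every value was whole, so rounding changed 0 of them. Gene symbols, positions and principal transcripts came from GENCODE M21 on GRCm38, and 35422 of 35727 genes had a symbol.

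Counts were analysed with edgeR 4.0.16 in R 4.3.3: filterByExpr with a minimum count of 10, TMM scaling, and a robust quasi-likelihood F-test of shPostn against shSCR without covariates. Benjamini-Hochberg adjustment ran over all 12819 genes tested, with a threshold of 0.05. CPM are scaled to TMM library sizes. Ratios between members were compared by exact 2-sided permutation of their log2 values, and adjusted over 5 ratios. The edgeR step was tested on simulated data. The members, the gene lists and the alternatives were chosen with earlier results of these data known. The rule named every member, Postn, up to 3 called genes in each direction of a list, and the closest profile for each member with a mean of at least 1 CPM, using log2 CPM with a prior count of 2; Dag1, Lrp4, Itgb1, Mmp2, Hpse and the single marker genes were added once their values had been seen. As alternatives, scaling used relative log expression, the upper quartile or no factors, and filtering used no minimum or 1 CPM in 3 libraries. Further fits used DESeq2 1.42.0, limma-voom (limma 3.58.1), a replicate block, chromosome medians (genes above 4 CPM) taken out of the offsets, and each library left out; taking out chromosome medians together with leaving out shPostn replicate 3 was added after seeing the data. The labels give no batch or date, so none was modelled.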

Additional observations from a re-analysis of the deposited data

How the results depend on the processing

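Of the 9 tested genes 4 were lower in shPostn under relative log expression, upper quartile and no scaling factors, no count filter, 1 CPM in 3 libraries and DESeq2, and 3 under limma-voom, where Col15a1 did not pass. The count was 1 with chromosome medians taken out (Nid1) and 3 when shPostn replicate 3 was left out as well (Nid1, Nid2 and Col15a1, chosen after seeing the data). With 1 library left out it ranged from 0 to 5. The count of members called higher was 0 in every one of these fits. Over the whole table the 1300 genes called became 654 with chromosome medians taken out and between 307 and 2220 with 1 library left out, and DESeq2 called 1937. The 5 ratios kept their direction under each pseudocount and with each library left out, but not their size: the difference of Col4a1 over Col4a5 ranged from 0.025 to 1.09 and that of Nid1 over Nid2 from 1.37 to 3.34 without single libraries. Col18a1 changed sign without shPostn replicate 2 (log2 fold change −0.0060, adjusted p = 0.982), and without single libraries it ranged from there to 0.24. With chromosome medians taken out Lamb1, Pxdn and Mmp16 did not pass and had smaller log2 fold changes (0.24, 0.29 and −0.27), while Col7a1 (0.89), Tll1 (2.33) and Mmp9 (1.10) did not pass at nearly the same fold change as before. Mmp9 (adjusted p = 0.0671) and Tll1 (0.0967) also did not pass with no count filter, nor Tll1 under limma-voom (0.0624).

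The groups share replicate numbers in the labels, which do not say whether same-numbered libraries belong together. The deviations of same-numbered libraries from their group means correlated at 0.0070, −0.11 and −0.48, and none correlated best with its own number. With 3 libraries in each group such correlations cannot exclude a pairing, and the main fit used none. A fit with the replicate number as a block called 735 genes and 2 of the members as lower, Nid1 and Agrn. Postn (log2 fold change −3.16, adjusted p = 0.0592), Tll1 (adjusted p = 0.0926) and Col7a1 (0.103) did not pass in it.

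With 3 libraries in each group an exact permutation cannot go below p = 0.1. Col15a1 and Col4a6 rest on few counts, and levels per length depend on the choice of transcript.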
